A study of Mus musculus with 4 samples.

Results

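Interferon-responding cells were a small group of vascular smooth muscle cells (VSMCs) of the ligated mouse carotid artery with high RNA for interferon-stimulated genes (ISGs). They were chosen by a score, the mean of log2(value + 1) over *Ifit3*, *Isg15*, *Iigp1*, *Gbp2*, *Ifit1*, *Ifit3b*, *Igtp*, *Gbp7* and *Ifi47*, where a value is the number of unique molecular identifiers (UMIs, each marking 1 captured RNA molecule) of a gene per 10000 UMIs of the cell. Of 10359 cells of the ligation experiment, 211 were first left out for 4 or more of 7 endothelial genes or 4 or more of 7 immune genes, and the 190 cells with the highest score among the 10148 kept cells are called members below. The whole series held 12790 cells.

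Single-cell RNA-seq of the left common carotid artery was done 28 days after its ligation, with the adventitia and non-remodelled segments taken away, in male C57Bl/6 mice aged 4 to 5 months. Control mice were wild-type littermates, and Trf2T188A mice (*SM22a-TRF2T188A*) carried a transgene for a mutant form of the telomere protein TRF2 under a minimal *Sm22a* promoter, which is active in VSMCs. Each genotype had 1 library, the number of mice in it is not given in the sources used here, and genotype, animals and library cannot be told apart. No p-value is therefore given, cells were not treated as replicates, and every 95% interval below covers counting error only. The 2 ligation libraries shared 10 cell barcodes, none of them in a member.

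Type I interferon acts through the kinases JAK1 and TYK2 on STAT2 and IRF9, which act at the interferon-stimulated response element (ISRE) of antiviral genes such as the *Ifit* family and *Isg15*. Interferon gamma acts through gamma-activated sites (GAS) and through IRF1 and CIITA, and raises guanylate-binding proteins (GBPs), immunity-related GTPases (IRGs) and the antigen presentation genes of major histocompatibility complex (MHC) classes I and II. Both programmes share many genes, including most GBPs and IRGs.

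The promoters of 5 scoring genes are shown because they carry the element that links the score to this pathway. They are RefSeq sequences of GRCm38.p6, from 250 bases before to 50 bases after the annotated start of transcription, written 5′ to 3′ on the strand of the gene, and capitals mark each match to the ISRE core, GAAA followed by any 2 bases and GAAA, on either strand.
*Ifit1* promoter, chr19:34640639-34640938, + strand: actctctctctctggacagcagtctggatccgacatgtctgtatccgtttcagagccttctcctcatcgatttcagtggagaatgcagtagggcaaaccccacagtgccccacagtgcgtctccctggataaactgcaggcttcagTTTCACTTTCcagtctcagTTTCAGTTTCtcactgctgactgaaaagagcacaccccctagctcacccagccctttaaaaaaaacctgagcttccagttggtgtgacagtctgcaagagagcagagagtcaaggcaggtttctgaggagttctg
*Ifit3* promoter, chr19:34583279-34583578, + strand: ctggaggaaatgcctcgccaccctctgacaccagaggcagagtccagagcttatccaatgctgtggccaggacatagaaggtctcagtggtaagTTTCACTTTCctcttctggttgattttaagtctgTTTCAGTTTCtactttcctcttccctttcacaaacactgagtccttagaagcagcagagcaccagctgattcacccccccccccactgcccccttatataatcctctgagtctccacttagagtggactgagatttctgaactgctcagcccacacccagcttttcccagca
*Isg15* promoter, chr4:156200769-156201068, - strand: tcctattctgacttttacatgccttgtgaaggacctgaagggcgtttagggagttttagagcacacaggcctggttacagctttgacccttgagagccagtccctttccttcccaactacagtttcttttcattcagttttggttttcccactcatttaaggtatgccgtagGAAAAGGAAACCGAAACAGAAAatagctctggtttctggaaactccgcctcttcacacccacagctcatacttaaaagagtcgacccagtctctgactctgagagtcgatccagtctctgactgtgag
*Gbp2* promoter, chr3:142620413-142620712, + strand: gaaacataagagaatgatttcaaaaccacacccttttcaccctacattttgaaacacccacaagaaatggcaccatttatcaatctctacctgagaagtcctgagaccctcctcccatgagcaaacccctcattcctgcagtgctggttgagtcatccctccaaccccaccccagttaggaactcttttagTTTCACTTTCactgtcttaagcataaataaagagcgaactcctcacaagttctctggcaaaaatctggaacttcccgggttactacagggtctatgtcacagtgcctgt
*Igtp* promoter, chr11:58199306-58199605, + strand: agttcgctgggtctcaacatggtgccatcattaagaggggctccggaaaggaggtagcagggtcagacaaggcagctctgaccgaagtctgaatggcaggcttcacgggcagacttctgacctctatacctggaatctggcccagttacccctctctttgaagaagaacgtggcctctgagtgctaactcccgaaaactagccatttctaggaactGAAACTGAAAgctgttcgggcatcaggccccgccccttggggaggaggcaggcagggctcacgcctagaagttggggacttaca
In these windows *Isg15* held 3 overlapping matches, *Ifit1* and *Ifit3* held 2 each, and *Gbp2* and *Igtp* held 1 each. The first match began 104 bases before the start in *Ifit1*, 156 in *Ifit3*, 78 in *Isg15*, 59 in *Gbp2* and 34 in *Igtp*. Of the 9 scoring genes, 8 had a promoter in the table and 7 of these held the core, as against 3.99% of all 27025 genes of the table. Among the genes found higher in members below, 54 of 66 had a promoter and 27 of these, 50%, held it. Those 54 include the 8 scoring genes with a promoter, which were chosen in advance and 7 of which held it. A match to the GAS letters, TTC followed by any 3 bases and GAA, was present in 2 of the 8 scoring genes and in 11 of the 54 higher genes, 20.4%, against 9.55% of all genes, and 1 of 11 contractile gene promoters held the ISRE core. A match describes letters in a window and is not a measured binding site.

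The members were 121 control and 69 Trf2T188A cells. They made up 2.48% of the 4878 kept control cells (95% Clopper-Pearson interval 2.06 to 2.96) and 1.31% of the 5270 kept Trf2T188A cells (1.02 to 1.65). Their scores ran from 1.11 to 4.86 with a median of 2.0, the median of the other kept cells was 0, and the cells on each side of the limit scored 1.11 and 1.10, so the group was the upper end of a range with 20 members and 15 other cells within 0.1 of the limit. A member had UMIs of 4 to 9 of the scoring genes. The median depth was 9448 UMIs in control and 12271 in Trf2T188A members, against 8613 and 11153 in other kept cells. After each cell was thinned to 5000 UMIs, which left out 315 control and 142 Trf2T188A kept cells, the shares were 2.63% and 1.37%.

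The label was checked against markers. *Acta2* and *Tagln*, 2 genes of the contractile apparatus, had UMIs in every member, but they also had UMIs in most endothelial cells left out by the rule, *Acta2* in 54 of 63 control and 60 of 68 Trf2T188A cells. *Myh11*, the smooth muscle myosin heavy chain, had UMIs in 116 of 121 control and 68 of 69 Trf2T188A members, against 14 of 63 and 17 of 68 endothelial cells. The summed level of 14 contractile genes had a median of 423 in control and 442 in Trf2T188A members, 502 and 501 in other kept cells and 21.8 and 12.7 in endothelial cells. The endothelial genes *Cdh5*, *Cldn5*, *Egfl7* and *Vwf* were at 0 in all members. The summed level of the 7 endothelial genes ran from 0 to 2.49 in control and 0 to 2.22 in Trf2T188A members, with a median of 0 in both. *Pecam1* was present in 14.9% and 17.4% of members, against 8.93% and 13.1% of other kept cells. All 7 immune genes were at 0 in Trf2T188A members, and in control members *Fcer1g*, *Tyrobp*, *Laptm5* and *Ptprc* were at 0 and the others occurred in 3 cells. The rule removes cells with several of these genes, so the low values are partly set by it.

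The levels of the scoring genes chose the cells and are given as a description. *Isg15*, a ubiquitin-like modifier, averaged 18.9 UMIs per 10000 in control and 17.2 in Trf2T188A members, against 0.372 and 0.339 in other kept cells. *Ifit3*, which encodes a protein that binds foreign RNA complexes, averaged 13.5 and 14.8, against 0.0519 and 0.0555. On the *Ifit* side described below, *Isg15* averaged 26.0 in control and 17.6 in Trf2T188A members and *Ifit3* 21.0 and 15.2. *Gbp2*, a guanylate-binding protein, averaged 11.5 in control members and 1.84 in Trf2T188A members, against 0.139 and 0.118 in others. Its median over cells was 2.94 in control and 0.732 in Trf2T188A members, and its highest cell had 88.4 and 12.3. *Iigp1*, an IRG that attacks the vacuoles of intracellular parasites, averaged 15.4 and 8.09. *Igtp*, another IRG, averaged 5.35 and 1.42.

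**Figure D1:**
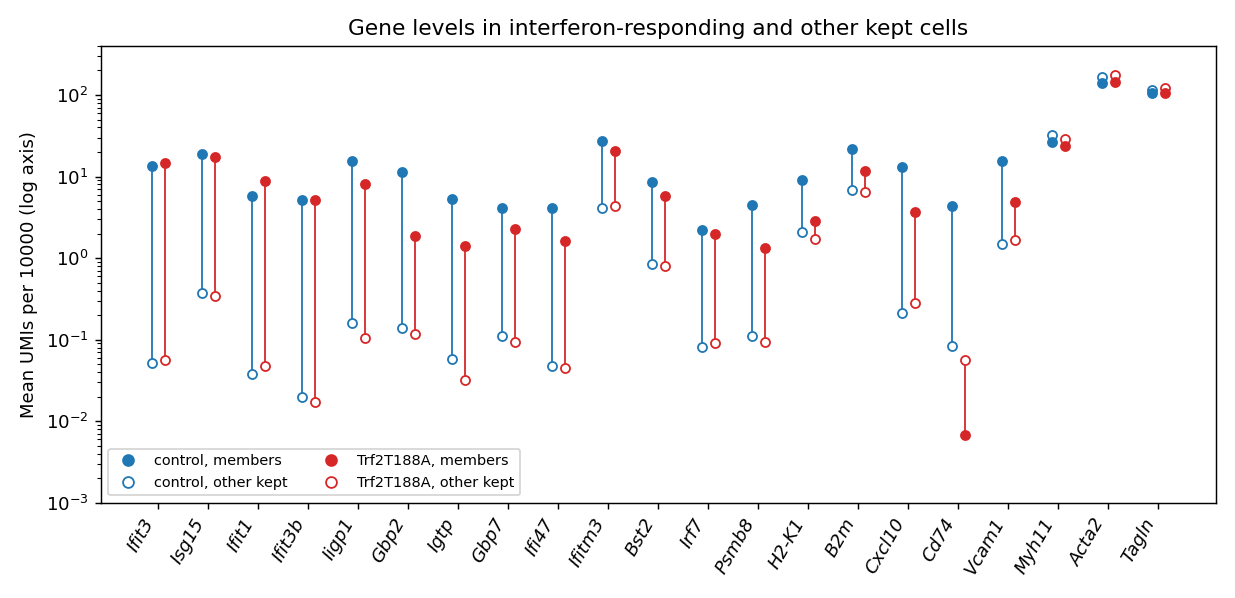
Mean UMIs per 10000 (log axis) of scoring genes, other interferon-stimulated genes and contractile genes in members (filled) and other kept cells (open) of the control (blue) and Trf2T188A (red) libraries. *Ifit3* averaged 13.5 in control and 14.8 in Trf2T188A members, *Gbp2* and *Cd74* were lower in Trf2T188A members, and *Acta2* and *Tagln* differed little.

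Beyond the scoring genes, some genes for antiviral effectors, MHC class I and interferon signalling were higher in members of both libraries, and none of 7 MHC class II genes was called in both. A gene was called higher or lower where the log2 ratio of mean values, each plus 1, was at least 0.5 in the same direction in both libraries, among 8974 genes with a UMI in at least 10% of the cells of a group. There were 66 higher genes, 0.735% of those tested, and 1 lower gene, 0.0111%. In 1 library alone the higher genes were 1.35% of those tested in control and 0.758% in Trf2T188A. Of the 66, 9 were the scoring genes, 46 more belonged to the gene lists and 11 to none. The antiviral list had 22 of 40 measured genes higher and none lower, and its median log2 ratio was 0.84 in control and 0.56 in Trf2T188A, against −0.01 in both for all genes tested. *Ifitm3*, a membrane protein that restricts virus entry, was the highest of them by mean log2 ratio and averaged 27.2 in control and 20.4 in Trf2T188A members, against 4.13 and 4.31 in other kept cells. *Bst2*, which tethers budding virus, averaged 8.51 and 5.79, against 0.843 and 0.804. *Rsad2*, the enzyme viperin, averaged 1.87 and 2.0, against 0.0132 and 0.0102.

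The list of GBPs, IRGs and related genes outside the score had 5 of 18 genes higher in both libraries. *Gbp3* averaged 3.45 in control and 1.33 in Trf2T188A members and *Irgm1* 2.27 and 1.96, against at most 0.122 in other kept cells. Of MHC class I genes, 8 of 19 were higher in both libraries and 15 in control. The immunoproteasome subunit *Psmb8* averaged 4.46 in control and 1.33 in Trf2T188A members, against 0.112 and 0.0934, and the class I light chain *B2m* averaged 21.9 and 11.7, against 6.82 and 6.48. These genes therefore stood higher in members of both libraries, with the larger difference in control. The list medians were 1.18 in control and 0.46 in Trf2T188A.

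Among signal transducers, *Stat2* (log2 ratio 0.73 in control and 0.67 in Trf2T188A), *Irf9* (0.82 and 0.68) and *Irf7* (1.58 and 1.44), all of them also interferon-stimulated, were higher. Receptors differed little. *Ifnar1*, a chain of the type I receptor, averaged 0.219 in control and 0.239 in Trf2T188A members and 0.232 and 0.217 in other kept cells, and *Ifngr1*, a chain of the interferon gamma receptor, had ratios of 0.04 and 0.09. The cytosolic RNA sensors *Ddx58* (RIG-I) and *Ifih1* (MDA5) and the endosomal sensor *Tlr3* were higher, 3 of 13 sensor genes. The adaptor *Sting1* was near 0 in every group, with 2 UMIs in control and 0 in Trf2T188A members, the latter allowing UMIs in up to 4.35% of the cells. *Tbk1* and *Irf3*, which act downstream of it, had ratios between −0.11 and 0.09. The feedback genes *Usp18*, which restrains the type I receptor, and *Cd274*, which encodes PD-L1, were higher. Interferon genes themselves were almost absent from members, as *Ifnb1* and *Ifng* had 0 UMIs in members of both libraries. In the cells left out by the rule, *Ifnb1* had UMIs in 7.69% of control and 10.9% of Trf2T188A immune cells, and in 1.47% of Trf2T188A endothelial cells.

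The 10 higher genes of no list with the largest ratios were *Samhd1*, *9930111J21Rik2*, *Trim12c*, *Mcm6*, *Tmem140*, *Slfn9*, *Zc3hav1*, *Nmi*, *Znfx1* and *Trim12a*. *Samhd1*, which degrades deoxynucleotides, averaged 2.77 in control and 0.835 in Trf2T188A members, against 0.318 and 0.274. *Mcm6*, a subunit of the replicative helicase, averaged 1.24 and 1.23, against 0.373 and 0.361. The lower gene was *Rgs5*, a regulator of G-protein signalling known from pericytes and VSMCs, which averaged 0.885 and 1.14, against 1.73 and 2.39. In Trf2T188A members 1 cell held 53.1% of its sum, and no lower gene was called under 4 of the alternatives, among them the difference of mean log2 values and thinned cells.

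No contractile gene was called. All 14 had a log2 ratio below 0 in both libraries, as did 34.5% of all genes tested, and the median was −0.16 in control and −0.23 in Trf2T188A. Genes of cell dissociation stress had a median of −0.17 in control, with 1 of 13 above 0, and 0.05 in Trf2T188A. In control, the mean summed contractile level was 503 in GTPase side members described below, 384 in *Ifit* side members and 493 in other kept cells. The 107 genes of the score and of the antiviral, GBP and IRG, MHC and chemokine lists together had more RNA in members. This extra RNA alone lowered every other gene's value per 10000 by −0.04 and −0.02 on the same scale without the added 1. *Myh11* averaged 26.9 in control and 23.5 in Trf2T188A members, against 32.8 and 29.2, and *Cnn1*, the actin-binding protein calponin, 9.48 and 7.72, against 11.2 and 11.2. The cell ranges overlapped widely, with *Myh11* from 0 to 100.4 in control and 0 to 97.3 in Trf2T188A members. None of 10 senescence genes was called, and the cell cycle inhibitor *Cdkn1a* averaged 2.92 and 3.02, against 3.30 and 2.91. None of the 13 genes of cell dissociation stress was called. Of 8 fibroblast genes 4 could be tested and none was called. No gene of the lists for Schwann cells, T and natural killer cells and proliferation reached the detection limit, so no call was possible there. All 6 proliferation genes had ratios above 0 in both libraries, with medians of 0.03 in control and 0.10 in Trf2T188A. Of all 8974 genes tested, 3755 were above 0 in control and 4087 in Trf2T188A. The proliferation ratios rested largely on single cells. In control and Trf2T188A members the highest cell held 85.8% and 83.3% of the *Mki67* sum and 73.1% and 84.6% of the *Top2a* sum. The median summed level of the list was 0 in members of both libraries.

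**Figure D2:**
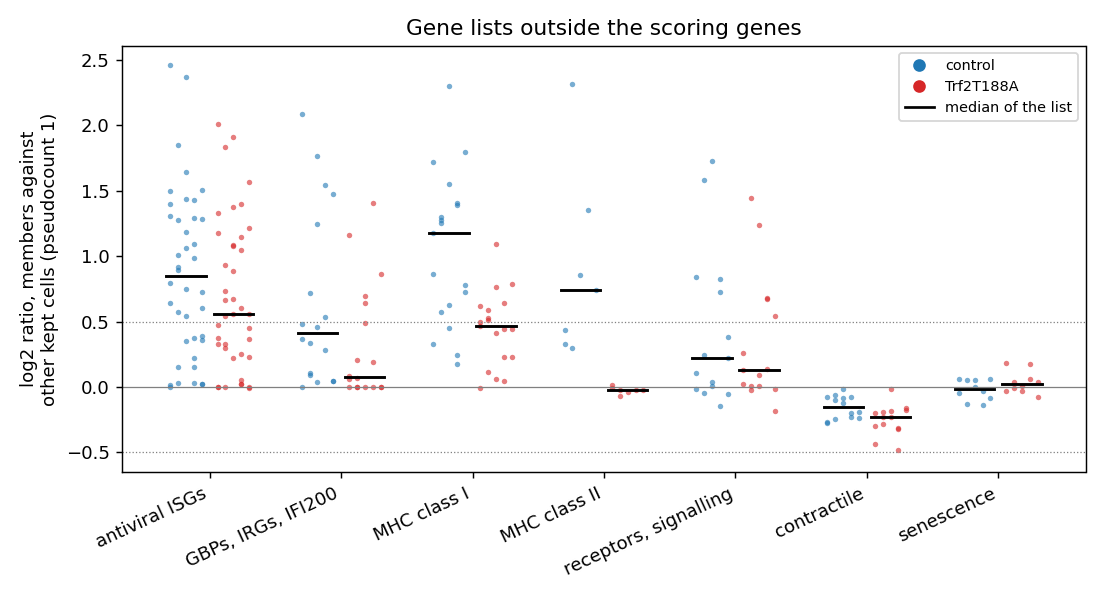
Log2 ratio of members against other kept cells for each gene (points) of 7 lists in the control (blue) and Trf2T188A (red) libraries, with the median of the list (black bar) and dotted lines at 0.5 and −0.5. All 7 MHC class II genes were above 0 in control and 1 was in Trf2T188A, with medians of 0.74 and −0.02, and contractile genes were below 0 in both.

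The vascular adhesion molecule *Vcam1* and the T cell attractant *Cxcl10* were also higher in both libraries. *Cxcl10* averaged 13.1 in control and 3.67 in Trf2T188A members, against 0.214 and 0.285, but was present in only 47 of 121 and 19 of 69 members, and its highest cell held 17.7% and 31.4% of the total. *Vcam1* averaged 15.4 and 4.86, against 1.51 and 1.68. Its median over members was only 1.81 and 1.28, and its highest cell held 13.9% and 21.3% of the total.

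Between the genotypes, most antigen presentation genes and most GBPs and IRGs tested were lower in Trf2T188A than in control members. With a limit of 0.25 on the log2 ratio, 244 of 8793 genes, 2.77%, were higher in Trf2T188A and 288, 3.28%, were lower, against 0.762% and 0.193% for the same genes in other kept cells, which are far more numerous. Of MHC class I genes, 16 of 19 were lower, of MHC class II 7 of 7, of GBPs and IRGs outside the score 7 of the 9 tested, and of antiviral genes 12 of the 32 tested. None of the genes of these 4 lists was higher. All 7 MHC class II genes reached the detection limit in control members only, so a call in the other direction was hardly possible for them. *Cd74* had UMIs in 27.3% of control and 1.45% of Trf2T188A members. The lowest ratios were those of *Cd74* (−2.42, interval −2.53 to −2.31), the invariant chain of MHC class II, *Gbp2* (−2.13, −2.30 to −1.96), *Cxcl10* (−1.59, −1.74 to −1.44), *Vcam1* (−1.49, −1.62 to −1.35) and *H2-K1* (−1.40, −1.56 to −1.24), an MHC class I heavy chain. In other kept cells the same ratios were −0.04, −0.03, 0.08, 0.10 and −0.18. With 1 added to each mean, genes of such low level there cannot give ratios far from 0. *Cd74* averaged 0.0832 in control and 0.0567 in Trf2T188A other kept cells, and *Gbp2*, which the rule itself keeps low there, 0.139 and 0.118. These ratios and the shares above therefore cannot tell whether the differences were particular to members. Of the *Ifit* genes, *Ifit2*, which is outside the score and named after its value was seen, averaged 1.88 in control and 0.495 in Trf2T188A members, a ratio of −0.95 (−1.15 to −0.75). *Gbp2* is a scoring gene, as are *Ifit1* (0.54), *Ifit3* (0.12) and *Isg15* (−0.13), and the ratios of scoring genes are descriptions, since their values chose the cells.

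The highest ratios were those of the elastic fibre gene *Eln* (1.11), the ribosomal protein gene *Rps10* (0.71), *Ankrd1* (0.69), *Serf2* (0.66) and the matrix phosphoprotein *Spp1* (0.65). *Eln* (0.62), *Rps10* (0.44) and *Serf2* (0.47) were also higher in other kept Trf2T188A cells. *Eln* and *Ankrd1* rested partly on single cells, whose values were 17.4% and 37.2% of the sum in Trf2T188A members, and the median of *Eln* was 11.7 in control and 14.8 in Trf2T188A members. With the 95 highest-scoring cells as members the ratio of *Eln* was −0.71, the opposite direction.

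Members fell on different sides of a balance between the scoring genes. The 4 genes *Ifit3*, *Isg15*, *Ifit1* and *Ifit3b* were compared in each cell with the 5 GTPase genes *Iigp1*, *Gbp2*, *Igtp*, *Gbp7* and *Ifi47*, and a cell was placed on the side with the higher mean log2 level, a split made after the values had been seen. In control, 72 members were on the *Ifit* side and 49 on the GTPase side. In Trf2T188A, 67 were on the *Ifit* side and 2 on the GTPase side. Members on the *Ifit* side were 1.48% (1.16 to 1.86) of kept control and 1.27% (0.987 to 1.61) of kept Trf2T188A cells, and those on the GTPase side 1.0% (0.744 to 1.33) and 0.0380% (0.00460 to 0.137). The sides were cut from the values that chose the members, so these shares are a description and nothing was tested with them.

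**Figure D3:**
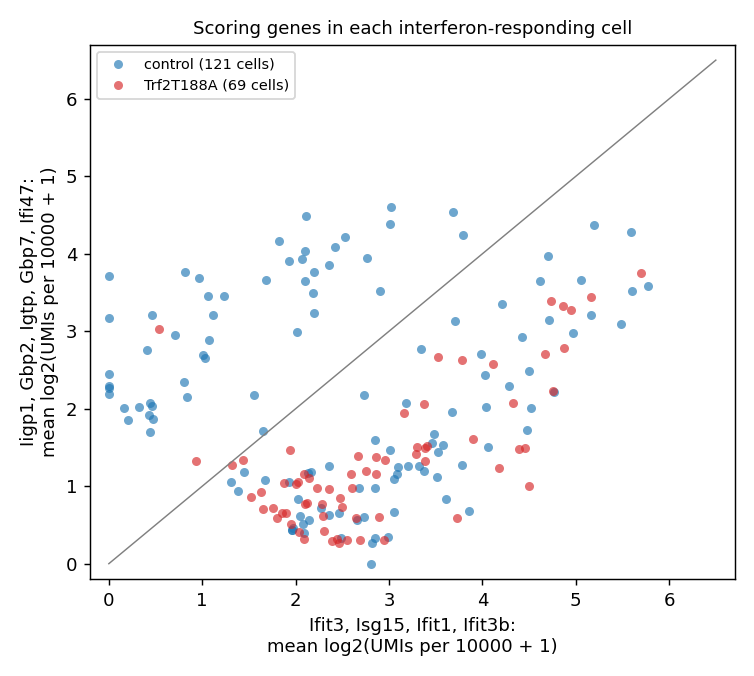
Mean log2(UMIs per 10000 + 1) of the 4 Ifit and Isg15 genes (horizontal) and of the 5 GTPase genes (vertical) in each member, for control (blue, 121 cells) and Trf2T188A (red, 69 cells), with a line where both are equal. Above the line lie 49 control cells and 2 Trf2T188A cells.

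When the 190 cells were chosen by the 4 *Ifit* and *Isg15* genes alone, 106 were control and 84 Trf2T188A, or 2.17% (1.78 to 2.62) and 1.59% (1.27 to 1.97) of kept cells. When they were chosen by the 5 GTPase genes alone, 135 were control and 55 Trf2T188A, or 2.77% (2.33 to 3.27) and 1.04% (0.787 to 1.36). Both choices used part of the scoring genes and are descriptions too.

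**Figure D4:**
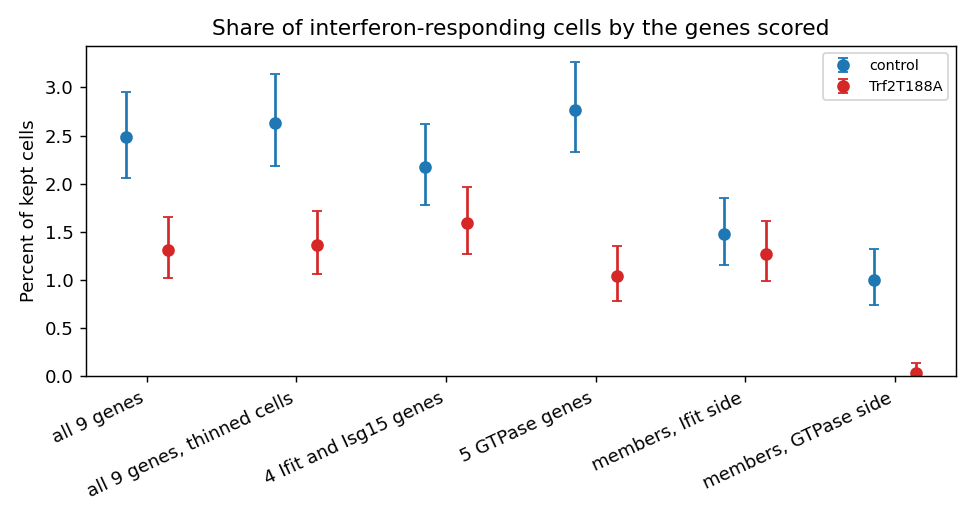
Percent of kept cells that were interferon-responding in control (blue) and Trf2T188A (red), for the genes used in the score and for members on either side of the balance, with 95% Clopper-Pearson intervals of counting error (bars). Shares of the *Ifit* side were 1.48% and 1.27%, and those of the GTPase side 1.0% and 0.0380%.

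Control members of the GTPase side had the highest level of antigen presentation RNA per cell. The summed MHC class I level had a median of 75.1 in these cells, 30.7 in control members of the *Ifit* side and 25.1 in Trf2T188A members of the *Ifit* side. *Irf1*, a transcription factor that interferon gamma raises strongly, averaged 5.36, 1.43 and 1.57 in the same order. *Vcam1* averaged 26.5, 7.87 and 4.91, with medians of 3.37, 1.52 and 1.28. *Myh11* averaged 35.9, 20.7 and 23.8, and other kept cells had 32.8 in control and 29.2 in Trf2T188A. *Mgp*, a matrix protein that inhibits calcification, averaged 167, 564 and 506, and other kept cells had 376 and 367. In control, GTPase side members thus had the higher *Myh11* and the lower *Mgp*, and the 2 Trf2T188A cells of that side averaged 12.1 and 499. Among *Ifit* side members alone, the median ratio of Trf2T188A against control was −0.22 for MHC class I genes and 0.07 for contractile genes, whereas over all members it was −0.56 and −0.17. For antiviral genes outside the score it was −0.27 on the *Ifit* side, with 36 of 40 genes below 0, and −0.13 over all members, and for the scoring genes it was −0.49 and −0.66. For GBPs, IRGs and related genes outside the score it was −0.07 on the *Ifit* side, with 12 of 18 genes below 0. Over all members it was −0.30. Among all genes tested, 4315 of 8793 were below 0 over all members, and the share on the *Ifit* side was not determined. On that side the mean log2 level of the *Ifit* and *Isg15* scoring genes had a median of 3.19 in control and 2.65 in Trf2T188A. Whether the choice of cells by the scoring genes set these ratios was not tested.

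MHC class II genes, in most tissues restricted to antigen-presenting cells, were detected in a subset of control members. UMIs of 3 or more of 7 class II genes were present in 23 of 121 control members, 19.0% (12.4 to 27.1), and in 0 of 69 Trf2T188A members, which allows up to 4.35%. Among other kept cells the counts were 31 of 4757 and 18 of 5201. These other cells had median depths of 10608 and 19474 UMIs, averaged 30.5 and 11.4 for *Myh11*, and had no *Ptprc* UMI. Whether their class II RNA was free RNA or came from mixed cells was not tested. All 23 control members with 3 or more class II genes were on the GTPase side. They had no *Ptprc* UMI, averaged 28.1 for *Myh11*, 22.1 for *Cd74* and 38.8 for *Gbp2*, and had a median of 9733 UMIs. *Ciita*, the activator of class II genes, had 30 UMIs in GTPase side and 1 UMI in *Ifit* side control members. *Ccl5*, a chemokine named here after its values were seen, had 560 UMIs in control members, in 6 cells that all belonged to the 23, and 0 in Trf2T188A members. A single cell held 53.6% of the summed *Ccl5* value of control members. Among other kept cells *Ccl5* had 34 UMIs in 6 control cells and 622 UMIs in 15 Trf2T188A cells. Doublets were not called by any tool.

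Cells left out by the rule were compared at the same score limit. It was reached by 22 of 63 endothelial control cells, 34.9% (23.3 to 48.0), and 6 of 68 endothelial Trf2T188A cells, 8.82% (3.31 to 18.2), the same order of genotypes as among members. Over all these endothelial cells, *Gbp2* averaged 5.19 in control and 1.64 in Trf2T188A, *Ifit3* 2.30 and 0.275, and *Ifit1* 1.10 and 0.0464. Among immune cells 3 of 26 and 1 of 55 reached the limit. A separate experiment, with its own library per genotype, took plaques from *Myh11-CreERt2/Confetti/ApoE-/-* mice and *Myh11-CreERt2/Confetti/Sm22a-Trf2T188A/ApoE-/-* mice that had received tamoxifen and then 14 weeks of high fat diet, and Confetti marks VSMCs and their progeny. In these, 10 of 1500 and 8 of 924 cells reached it, 0.667% (0.320 to 1.22) and 0.866% (0.375 to 1.70). *Gbp2* averaged 3.29 and 4.50 in these plaque cells.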

How the data were processed

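Single-cell RNA-seq libraries of ligated carotid arteries, 1 of control and 1 of Trf2T188A mice, and 1 of plaques per genotype were used. Per the labels and methods, the authors prepared them with the Chromium 3′ kit, used Cell Ranger for alignment to GRCm38, and filtered cells on gene number and mitochondrial share. As deposited, the signal was on a linear scale, in UMIs of a gene per 10000 of its cell. All values, 100%, were within 0.01 of a whole number of UMIs, so UMI counts were recovered. The ligation cells held 2205 to 53529 UMIs each, which limits the precision for genes of low level.

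The members and gene lists were chosen with earlier results of these data known. Log2 ratios were those of mean values with a pseudocount of 1, as in the FindMarkers function, and genes needed a UMI in 10% of a group. Intervals (95%) came from UMI counts by the delta method or Clopper-Pearson, and where no cell had a UMI the share that 3 cells would make is printed. No tests were run, as each genotype had 1 library. Genes named were the scoring genes, 9 set VSMC and senescence genes, receptors, *Sting1*, *Tbk1* and *Irf3*, up to 6 called genes of each list, the 10 highest and lowest called outside the lists, and the 5 highest and lowest genotype ratios. Others, including the genes set beside the balance of scoring genes, were named after their values were seen. Among called genes, 1 is not reported here. Alternatives changed the pseudocount, scale, depth, detection filter, score, number of cells and cell removal. The steps were tested on simulated data. Python 3.11.15, numpy 2.4.6, scipy 1.17.1 and matplotlib 3.10.9 were used.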

Additional observations from a re-analysis of the deposited data

Results flagged for a closer look

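*Spp1* had opposite directions in the 2 libraries. Its log2 ratio of members against other kept cells was −0.39 in control and 0.49 in Trf2T188A, and the difference was not tested. In control members 10 of 121 cells had a UMI and 1 cell held 88.6% of the summed value, and in Trf2T188A members 20 of 69 cells had a UMI.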

How the results depend on the processing

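No paired analysis was possible because each genotype had 1 library. The share of members was higher in control under every alternative, but this was partly fixed in advance. Changes of pseudocount, scale and detection filter kept the same members, so the shares of 2.48% and 1.31% could not move. Thinning with the same members only left out cells under 5000 UMIs. The other alternatives still chose cells by the scoring genes, so their shares are descriptions and not an independent check. The shares were 1.41% of control and 0.493% of Trf2T188A kept cells with 95 members and 4.61% and 2.94% with 380, and without the GTPase side members the control share was 1.49%. Counts depended on the scale. Genes higher in members numbered 66, and 185 with a pseudocount of 0.1, 104 with 95 members and 43 with 380. Genes lower in members numbered 1, and 24 with the pseudocount of 0.1, 3 with 95 members and 0 with the difference of mean log2 values, with cells thinned to 5000 UMIs, with the score on thinned cells and with 380 members. Genes higher and lower in Trf2T188A members numbered 244 and 288, and 1990 and 1877 with the pseudocount of 0.1, 445 and 549 after thinning, 529 and 587 with 95 members and 152 and 120 with 380. The difference of mean log2 values gave 122 lower genes.

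The median ratio of the 58 interferon-stimulated genes outside the score was 0.53 for members against other kept cells. It was 1.95 with the pseudocount of 0.1, 0.37 as the difference of mean log2 values, 0.49 with summed UMIs, 0.51 after thinning, 0.56 with the score on thinned cells, 0.55 with a score of summed values, 0.74 with 95 members, 0.41 with 380, 0.57 with cells removed at 2 marker genes, 0.57 without the 5% of cells with the most UMIs, 0.45 without the 10 highest members and 0.58 without the GTPase side members. For Trf2T188A against control members it was −0.14, and −0.37, −0.069 and −0.090 with the first 3 of these, −0.10 with 95 members and with 380, −0.18 without the 5% of cells with the most UMIs, −0.079 without the 10 highest members and −0.19 without the GTPase side members. The last 2 settings were chosen after seeing the data. Of single genes, the genotype ratio of *Eln* was −0.71 with 95 members and that of *Cnn1* was 0.23 without the GTPase side members, against 1.11 and −0.26. The causes were not tested.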
